A study of Mus musculus with 9 samples.

Results

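The ion channel genes that the mouse dendritic cell line DC2.4 transcribed at a countable level are described here. A gene was a member when its symbol starts with Kcn, Cacn, Scn, Clcn, Clic, Trpc, Trpm, Trpv, P2rx, Lrrc8, Ano or Orai followed by a letter or digit, and when at least 3 of 9 libraries held 10 or more reads of it. Of 200 genes with such names, in a table of 21959 genes, 64 were members. Read counts chose the members, so that their being expressed is not a finding. Just inside the limit lay Kcnab3, Kcnh4 and P2rx5, whose third-largest count was 10, and just outside lay Cacna1g, Trpc4 and Trpc5os with 9.

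Total RNA was sequenced from 3 groups of 3 libraries, labelled OMVSSDC, ZJDC and PBSDC. All are DC2.4, an immortalised line labelled as dendritic cells, and no genotype, dose or time is given. The study's description speaks of DC2.4 cells treated with engineered extracellular vesicles to look at immune-related genes, but OMVSS and ZJ are not spelled out and neither label tells which group received the vesicles. PBSDC, read as cells given phosphate-buffered saline, is the control. Whether replicate libraries are separate cultures is not stated, so the p-values measure only the spread between these libraries, which may be technical.

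Ion channels let ions cross membranes down their gradients. In dendritic cells and macrophages calcium enters through Orai channels, which open when the endoplasmic reticulum is depleted of calcium, and through channels opened by ATP, stretch, heat or oxidants. Potassium channels set the membrane voltage that draws calcium in, and loss of potassium is a known trigger of the NLRP3 inflammasome. Chloride channels and exchangers serve endosomes, lysosomes and cell volume. Some members are not channels: Trpc4ap encodes an adaptor of a ubiquitin ligase, Scnm1 a splicing factor and Kcnrg a regulator that binds potassium channels.

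Library totals were 12784931 to 18388959 counts, and 3 counts, the level that a count of 0 allows, equal 0.163 to 0.235 CPM, the counts scaled to a common library size, for counting error alone. OMVSSDC replicate 3 stood apart from its group. Over all genes, the chi-square per degree of freedom was 1.89 between OMVSSDC replicates 1 and 2, 62.4 and 65.1 between these and replicate 3, and 7.75 to 10.7 between replicate 3 and the ZJDC libraries. Values that depend on it are therefore also given without replicate 3, or within the 7 libraries left without OMVSSDC replicates 1 and 2, where OMVSSDC is 1 library assumed to vary like the other groups. Heart and brain markers summed to 8.15, 8.49 and 26.6 CPM in OMVSSDC, 30.6, 24.6 and 22.7 CPM in ZJDC and 43.7, 41.7 and 38.5 CPM in PBSDC, with 1 of 23 (Myl7) at 0 throughout. Fibroblast and endothelial markers (10 genes) summed to 10.4 to 31.2 CPM in OMVSSDC, 16.2 to 22.1 CPM in ZJDC and 27.8 to 32.3 CPM in PBSDC. Lymphoid markers summed to 2.27 to 4.94 CPM over the 9 libraries, with Cd3e, Cd3g, Cd8a and Ncr1 at 0 among 10, and epithelial markers to at most 1.76 CPM, with Krt19 at 0 among 8. The 17 dendritic and myeloid markers summed to 4780, 4661 and 5508 CPM in OMVSSDC, 5238, 5153 and 5125 CPM in ZJDC and 5753, 5932 and 5825 CPM in PBSDC, so that every OMVSSDC and ZJDC library was below PBSDC. Of 13 tested, 7 were higher and 4 lower in OMVSSDC (edgeR), where 33.4% and 30.2% of all genes were. In ZJDC 5 were higher and 4 lower, where 27.6% and 27.1% of all genes were. The median log2 fold change of the tested markers was 0.19 in OMVSSDC and 0.06 in ZJDC, so the lower sum does not stand for most of them. Among those lower in both were Itgam (-1.50 and -1.04 in log2 fold change in OMVSSDC and ZJDC, adjusted p = 9.22e-06 and 0.000152), Csf1r (-1.0 and -1.03, adjusted p = 5.94e-07 and 8.10e-07) and Lyz2 (-1.48 and -1.63, adjusted p = 1.51e-07 and 1.80e-07), chosen after their values were seen. The markers that were higher are not given singly. Flt3, Cd209a, Xcr1 and H2-Ab1 were too low to be tested. The part of these marker differences in the results below was not tested, and in bulk RNA fewer cells of a type and less RNA per cell cannot be told apart.

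The 250 bases before the annotated start are shown for 4 members that differed much between groups, P2rx4 with the smallest adjusted p of the set, Clcn7 among the chloride transporters, Cacnb3 among the calcium channel subunits and Trpv4 with the largest decrease. The sequences are from RefSeq on GRCm38.p6, 5′ to 3′ on the gene's strand. Clcn7 and Cacnb3 have 2 listed starts each, of which 1 is shown. Capitals mark matches, on either strand and with overlaps allowed, to GGGNNNNNCC (NF-kB-like), TGANTCA (AP-1-like), CACGTG (E-box) and GGGCGG (GC-box).
P2rx4, chr5:122707294-122707543, plus strand: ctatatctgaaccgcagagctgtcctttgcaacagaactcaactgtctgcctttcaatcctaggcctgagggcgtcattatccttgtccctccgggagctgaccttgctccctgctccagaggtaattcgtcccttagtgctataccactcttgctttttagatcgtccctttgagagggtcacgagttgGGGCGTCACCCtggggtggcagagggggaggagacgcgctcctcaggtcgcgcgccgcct
Clcn7, chr17:25133141-25133390, plus strand: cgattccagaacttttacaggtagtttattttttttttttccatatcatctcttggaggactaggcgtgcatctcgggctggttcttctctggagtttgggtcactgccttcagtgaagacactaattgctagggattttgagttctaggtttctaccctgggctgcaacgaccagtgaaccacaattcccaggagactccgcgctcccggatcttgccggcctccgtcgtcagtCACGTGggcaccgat
Cacnb3, chr15:98632078-98632327, plus strand: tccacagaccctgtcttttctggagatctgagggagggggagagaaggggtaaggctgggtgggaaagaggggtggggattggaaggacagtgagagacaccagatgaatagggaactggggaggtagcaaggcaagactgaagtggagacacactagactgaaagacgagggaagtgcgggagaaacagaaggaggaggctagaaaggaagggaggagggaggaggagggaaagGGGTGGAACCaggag
Trpv4, chr5:114658422-114658671, minus strand: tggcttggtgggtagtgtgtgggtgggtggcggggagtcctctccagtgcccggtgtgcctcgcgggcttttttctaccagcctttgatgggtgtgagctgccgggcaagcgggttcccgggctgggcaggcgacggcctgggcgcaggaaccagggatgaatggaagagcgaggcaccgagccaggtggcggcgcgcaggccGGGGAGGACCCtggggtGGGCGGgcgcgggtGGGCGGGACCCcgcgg
P2rx4 held 2 overlapping NF-kB-like matches, Clcn7 1 E-box, Cacnb3 1 NF-kB-like match and Trpv4 4 NF-kB-like matches and 2 GC-boxes, some of which overlap. Of the 50 members with a promoter in the RefSeq table, 34 (68.0%) held the NF-kB-like letters, 35 (70.0%) the GC-box, 9 (18.0%) the E-box and 3 (6.0%) the AP-1-like letters. Among the 9278 promoters of tested genes the shares were 61.7%, 59.6%, 8.59% and 4.38%, and among all 27025 promoters they were 45.4%, 32.9%, 6.05% and 6.87%. Mean GC content of the window was 61.6% for members and 60.0% for tested genes. These are matches of letters, not binding sites.

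Some families were represented almost whole and others thinly. Members made up 3 of 3 Orai, 7 of 9 Clcn, 4 of 5 Lrrc8, 4 of 7 P2rx, 4 of 8 Trpm, 2 of 5 Clic, 2 of 6 Trpv, 3 of 10 Ano, 7 of 26 Cacn, 23 of 94 Kcn, 4 of 18 Scn and 1 of 9 Trpc genes. Of the 136 genes below the limit, 25 had no read in any library. Levels per gene length are given as FPKM, which the authors deposited. By their mean over the 9 libraries 17 members stood at 10 FPKM or more, 17 between 1 and 10 and 30 below 1.

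The highest levels belonged to the Clic genes, whose products exist in soluble and membrane forms. Clic1 stood at 247 ± 27.8 FPKM in OMVSSDC, 232 ± 3.90 in ZJDC and 276 ± 6.28 in PBSDC (SD, n = 3 each). Clic4 stood at 154 ± 11.2 FPKM in OMVSSDC, 141 ± 1.86 in ZJDC and 116 ± 4.67 in PBSDC. Next came Trpv2, a cation channel of phagocytes, at 49.7 ± 8.76 FPKM in OMVSSDC, 40.3 ± 2.13 in ZJDC and 33.2 ± 2.30 in PBSDC. It was followed by the adaptor gene Trpc4ap at 28.8 ± 1.71 FPKM in OMVSSDC, 27.2 ± 0.311 in ZJDC and 31.0 ± 0.0876 in PBSDC, and by the lysosomal chloride-proton exchanger gene Clcn7 at 32.8 ± 7.80 FPKM in OMVSSDC, 23.0 ± 1.10 in ZJDC and 12.8 ± 0.267 in PBSDC. At the other end, Scn8a, a neuronal sodium channel, averaged 0.0407 FPKM over all libraries.

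**Figure D1:**
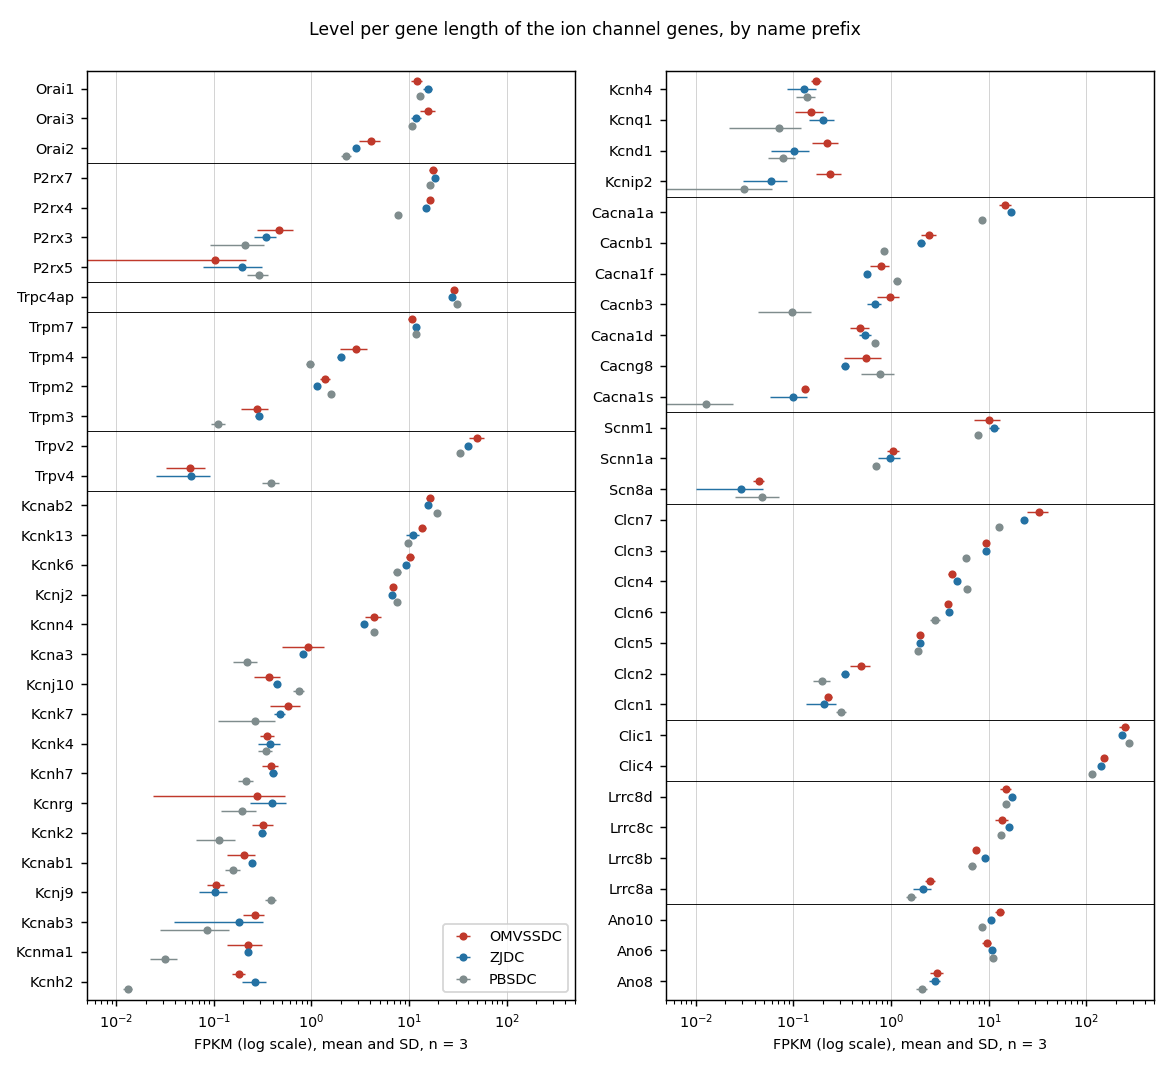
Mean FPKM (log scale) of 61 ion channel genes in OMVSSDC, ZJDC and PBSDC, grouped by name prefix, with the SD of 3 libraries as bars, shortened on the left where the SD reaches the mean. Clic1 and Clic4 lie above 100 FPKM in each group, and 29 of the genes plotted average below 1 FPKM.

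Both comparisons with control cells use the same 3 PBSDC libraries. Of the 64 members, 63 passed the filter on low counts. In OMVSSDC against PBSDC, 27 tested members were higher and 13 lower at an adjusted p under 0.05 (edgeR quasi-likelihood test), where 33.4% of all 11568 tested genes were higher and 30.2% lower. Called in either direction were 63.5% of tested members and 63.6% of all genes. In ZJDC against PBSDC, 23 were higher and 12 lower, where 27.6% of all genes were higher and 27.1% lower, and 55.6% of tested members and 54.7% of all genes were called in either direction. The share of members that differed from PBSDC was thus close to that of all genes. The median log2 fold change was 0.31 over tested members and 0.05 over all genes in OMVSSDC, and 0.24 over members and 0.01 over all genes in ZJDC. Changes beyond 2-fold were called for 13 higher and 3 lower members in OMVSSDC, against 12.9% and 6.87% of all genes, and for 9 higher and 4 lower members in ZJDC, against 9.18% and 3.89% of all genes.

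The way members were chosen bears on these counts. Members that reached 10 counts in some library of each group numbered 51, while 8 did so in OMVSSDC and ZJDC but not in PBSDC (Cacna1s, Cacnb3, Kcna3, Kcnab3, Kcnd1, Kcnh2, Kcnq1 and Kcnrg), 2 in ZJDC and PBSDC (Kcnj9 and P2rx5), Kcnh4 in OMVSSDC and PBSDC, Kcnip2 in OMVSSDC alone and Trpv4 in PBSDC alone. Such genes entered through the group where they were high. Cacna1s, Cacnb3, Kcna3 and Kcnh2 were among those over 2-fold higher in both comparisons with PBSDC, and Kcnj9 and Trpv4 among those lower. The 2-fold counts and the medians were not worked out without such genes, so their distance from all genes may come from the choice of members. Of the 46 members with 10 counts in all 9 libraries, 20 were higher and 11 lower in OMVSSDC, and 16 higher and 10 lower in ZJDC. With library totals alone as the scale the OMVSSDC split was 29 higher and 8 lower, against 27 and 13. On that scale the median over all genes was 0.18, against 0.05, with 40.4% of all genes higher and 24.4% lower. Without OMVSSDC replicate 3, OMVSSDC had 31 higher and 18 lower members, where 39.0% and 36.0% of all genes were, and ZJDC had 32 and 15, where 35.2% and 34.9% of all genes were. Groups did not overlap in CPM for 43 tested members in OMVSSDC against PBSDC, beside 65.7% of all genes, and for 47 in ZJDC against PBSDC, beside 72.2%.

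**Figure D2:**
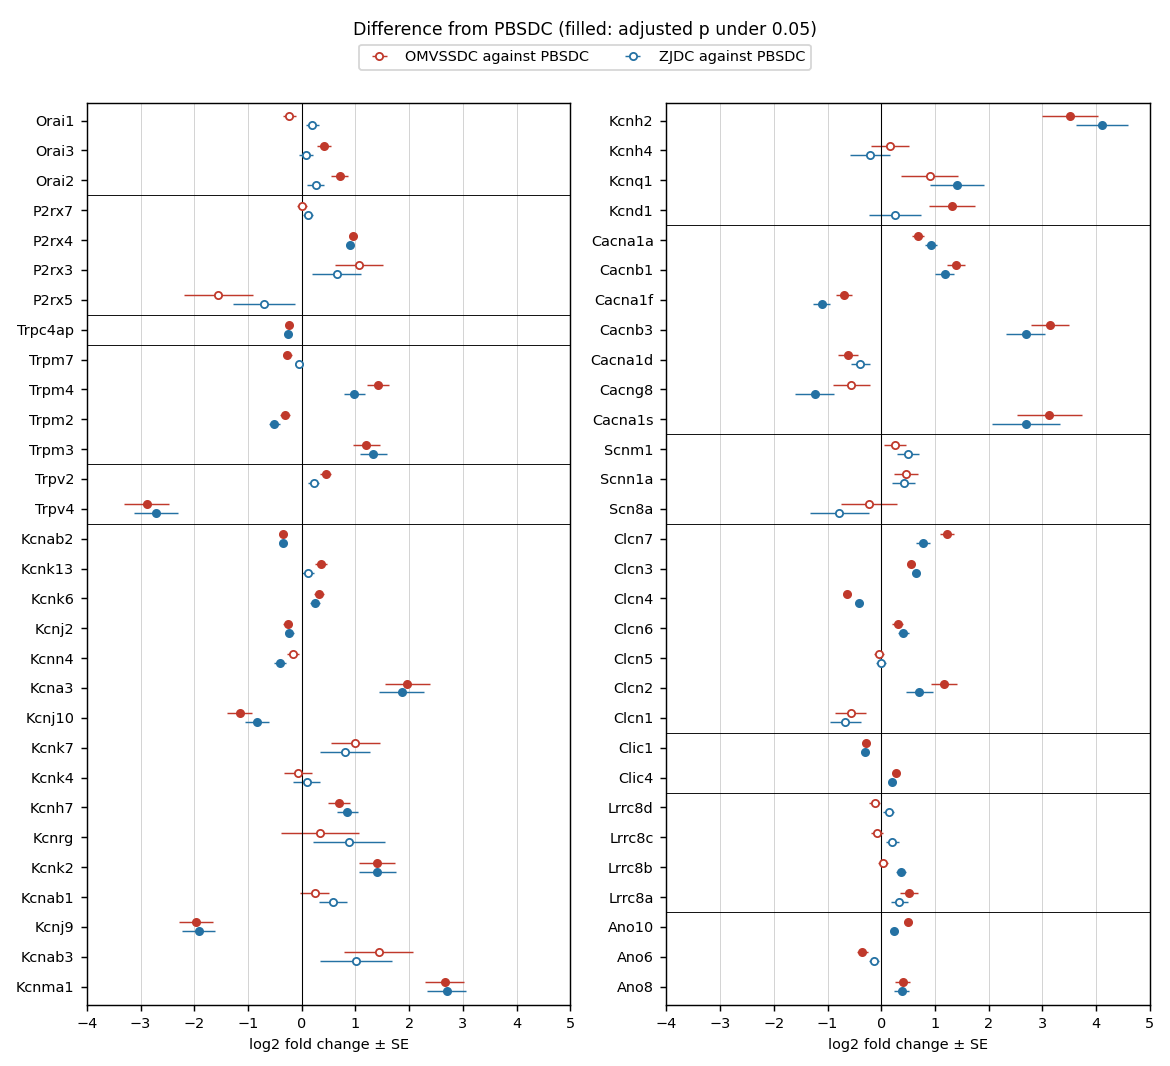
Log2 fold change and its standard error for 60 tested ion channel genes in OMVSSDC against PBSDC and in ZJDC against PBSDC, grouped by name prefix, with filled points at an adjusted p under 0.05. Kcnh2, Cacnb3, Cacna1s and Kcnma1 lie more than 2 log2 units above PBSDC in both comparisons, and Trpv4 lies more than 2 below.

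Members are described by role, 41 of them named by the rule given under processing and 20 added after their values were seen. Levels are CPM scaled by TMM, differences are log2 fold changes, and adjusted p-values are from edgeR. Counts per family stand beside 33.4% of all genes higher and 30.2% lower in OMVSSDC, and 27.6% and 27.1% in ZJDC. Calls lost when a change beyond 1.2-fold was asked for (glmTreat) are not listed gene by gene here. The fit shares its estimate of the spread over all groups. Settings that leave out OMVSSDC libraries use the same ZJDC and PBSDC libraries. A ZJDC call against PBSDC gained or lost in them is not an independent check.

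Orai proteins form the pore of store-operated calcium entry, and 2 of 3 were higher in OMVSSDC while 0 of 3 passed in ZJDC. Orai1, the main pore subunit, had 24.7, 23.5 and 31.0 CPM in OMVSSDC, 31.5, 36.5 and 38.5 CPM in ZJDC and 31.4, 29.5 and 31.5 CPM in PBSDC. Each of these groups overlapped PBSDC, with OMVSSDC replicates 1 and 2 below it and ZJDC replicates 2 and 3 above it. Orai1 did not pass in OMVSSDC (-0.23, adjusted p = 0.123) or in ZJDC (0.20, adjusted p = 0.166). It passed as lower in OMVSSDC without OMVSSDC replicate 3 (adjusted p = 0.00101) and after correction for length and GC content (adjusted p = 0.0334). As higher in ZJDC it passed without OMVSSDC replicate 3 (adjusted p = 0.0235), within the 7 libraries (adjusted p = 0.0261) and with only these 2 groups (adjusted p = 0.0232). Orai2, a subunit that tempers store-operated currents, had 27.8, 25.3 and 17.9 CPM in OMVSSDC, 17.4, 16.6 and 18.0 CPM in ZJDC and 12.5, 15.2 and 15.8 CPM in PBSDC. Every OMVSSDC library was above PBSDC, with replicate 3 at the level of ZJDC. Orai2 rose by 0.71 in OMVSSDC (SE 0.160, adjusted p = 0.00309), a call lost within the 7 libraries (adjusted p = 0.0782), where it stood at 0.30. In ZJDC it did not pass (0.26, adjusted p = 0.194), but did so without OMVSSDC replicate 3 (adjusted p = 0.0195), within the 7 libraries (adjusted p = 0.0247) and with only these 2 groups (adjusted p = 0.0224). Orai3, the mammalian-specific subunit, had 34.6, 35.3 and 26.4 CPM in OMVSSDC, 25.5, 22.5 and 28.1 CPM in ZJDC and 24.8, 24.7 and 22.6 CPM in PBSDC. It rose by 0.42 in OMVSSDC (adjusted p = 0.0150), a call lost without OMVSSDC replicate 1 (adjusted p = 0.0525), without OMVSSDC replicate 2 (adjusted p = 0.0631), without PBSDC replicate 3 (adjusted p = 0.0585) or within the 7 libraries (adjusted p = 0.395). Its ZJDC value was 0.08, adjusted p = 0.607.

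P2X receptors are cation channels opened by extracellular ATP, and P2rx4 alone among 4 passed in each comparison. P2rx4, found in lysosomes and at the surface of macrophages, had 108, 112 and 107 CPM in OMVSSDC, 110, 108 and 97.6 CPM in ZJDC and 58.9, 56.9 and 53.6 CPM in PBSDC. All 6 OMVSSDC and ZJDC libraries stood well above the 3 PBSDC libraries. It rose by 0.95 in OMVSSDC (SE 0.0697, adjusted p = 1.50e-06) and by 0.90 in ZJDC (SE 0.0696, adjusted p = 3.42e-06). P2rx7, the ATP receptor that sets off the NLRP3 inflammasome, had 94.2, 92.8 and 117 CPM in OMVSSDC, 115, 107 and 106 CPM in ZJDC and 95.6, 105 and 102 CPM in PBSDC. OMVSSDC replicates 1 and 2 were below the PBSDC libraries, while OMVSSDC replicate 3 and ZJDC were above them. P2rx7 did not pass in OMVSSDC (0.01, adjusted p = 0.951) or ZJDC (0.11, adjusted p = 0.321), but passed as higher in OMVSSDC within the 7 libraries (adjusted p = 0.0150). In ZJDC it passed as higher without OMVSSDC replicate 3 (adjusted p = 0.0418), within the 7 libraries (adjusted p = 0.0489) and with only these 2 groups (adjusted p = 0.0426). These genes are neighbours. In the table's coordinates, whose build was not given in the sources used here, P2rx7 lies on chromosome 5 at 122781974 to 122829495 and P2rx4 at 122845607 to 122867801, 16.1 kb apart on the same strand with 0 genes between. The sensory neuron receptor gene P2rx3 had 16, 31 and 12 counts in OMVSSDC, 18, 15 and 13 in ZJDC and 10, 4 and 13 in PBSDC, and did not pass in OMVSSDC (1.06, adjusted p = 0.0595) or ZJDC (0.65, adjusted p = 0.255). In OMVSSDC it passed as higher without OMVSSDC replicate 3 (adjusted p = 0.0109), without PBSDC replicate 3 (adjusted p = 0.0299) and with library totals alone (adjusted p = 0.0408). P2rx5, a further P2X subunit gene, had 1, 2 and 8 counts in OMVSSDC, 6, 10 and 5 in ZJDC and 9, 11 and 12 in PBSDC, low in OMVSSDC replicates 1 and 2 as were the heart and brain markers, whose part was not tested. It did not pass in OMVSSDC (-1.55, adjusted p = 0.0589) or ZJDC (-0.70, adjusted p = 0.322). In OMVSSDC it passed as lower without OMVSSDC replicate 3 (adjusted p = 0.00243), after correction for length and GC content (adjusted p = 0.0456) and with limma-voom (adjusted p = 0.0245), at -2.81 in the first of these.

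Of the 7 TRP genes tested, 3 were higher and 4 lower in OMVSSDC, and 2 higher and 3 lower in ZJDC. Among the lower ones, Trpv4 reached 10 counts in PBSDC alone. Trpv4, a calcium channel opened by swelling and warmth, had 4, 2 and 4 counts in OMVSSDC, 7, 2 and 3 in ZJDC and 22, 26 and 26 in PBSDC, or 0.288, 0.112 and 0.271 CPM in OMVSSDC, 0.395, 0.156 and 0.161 CPM in ZJDC and 1.30, 1.78 and 1.90 CPM in PBSDC. The OMVSSDC and ZJDC libraries all stood below PBSDC. Trpv4 fell by 2.89 in OMVSSDC (SE 0.426, adjusted p = 0.000197) and by 2.72 in ZJDC (SE 0.410, adjusted p = 0.000307), where the value without ZJDC replicate 1 was -3.31. Trpm4, a sodium and potassium channel opened by intracellular calcium, had 35.5, 33.1 and 19.9 CPM in OMVSSDC, 21.2, 20.4 and 23.5 CPM in ZJDC and 9.96, 11.9 and 11.2 CPM in PBSDC. All OMVSSDC and ZJDC libraries were above PBSDC, and OMVSSDC replicate 3 was level with ZJDC. Trpm4 rose by 1.42 in OMVSSDC (SE 0.196, adjusted p = 0.000125), or 0.85 within the 7 libraries, and by 0.98 in ZJDC (SE 0.197, adjusted p = 0.00191). Trpv2 had 234, 226 and 177 CPM in OMVSSDC, 172, 186 and 184 CPM in ZJDC and 148, 151 and 168 CPM in PBSDC. It rose by 0.45 in OMVSSDC (adjusted p = 0.00355), or 0.18 within the 7 libraries, and did not pass in ZJDC (0.22, adjusted p = 0.104), but did so without OMVSSDC replicate 3 (adjusted p = 0.000229), within the 7 libraries (adjusted p = 0.000393), after correction for length and GC content (adjusted p = 0.0429) and with only these 2 groups (adjusted p = 0.000374).

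Trpm2, a calcium channel opened by ADP-ribose under oxidative stress, had 18.0, 16.5 and 14.8 CPM in OMVSSDC, 15, 13.8 and 14.2 CPM in ZJDC and 21.2, 19.9 and 20.1 CPM in PBSDC. It was lower in each OMVSSDC and ZJDC library than in PBSDC, fell by 0.31 in OMVSSDC (adjusted p = 0.0173; lost without PBSDC replicate 1 (adjusted p = 0.0596) or with library totals alone (adjusted p = 0.158)), and fell by 0.51 in ZJDC (adjusted p = 0.00151). Trpm7, a magnesium and calcium channel joined to a kinase, had 103, 112 and 129 CPM in OMVSSDC, 134, 138 and 128 CPM in ZJDC and 139, 137 and 139 CPM in PBSDC. It fell by 0.27 in OMVSSDC (adjusted p = 0.0156), a call lost without OMVSSDC replicate 1 (adjusted p = 0.0511), within the 7 libraries (adjusted p = 0.192) or with library totals alone (adjusted p = 0.0883), and did not pass in ZJDC (-0.05, adjusted p = 0.622), but did so after correction for length and GC content (adjusted p = 0.00970). Trpm3, a calcium channel of sensory neurons opened by heat and steroids, rose by 1.2 in OMVSSDC (adjusted p = 0.00201) and by 1.33 in ZJDC (adjusted p = 0.00124), at a level of 6.45, 7.09 and 2.84 CPM on average in OMVSSDC, ZJDC and PBSDC. Trpc4ap fell by 0.23 in OMVSSDC (adjusted p = 0.00337; lost with library totals alone (adjusted p = 0.137)) and by 0.25 in ZJDC (adjusted p = 0.00263).

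**Figure D3:**
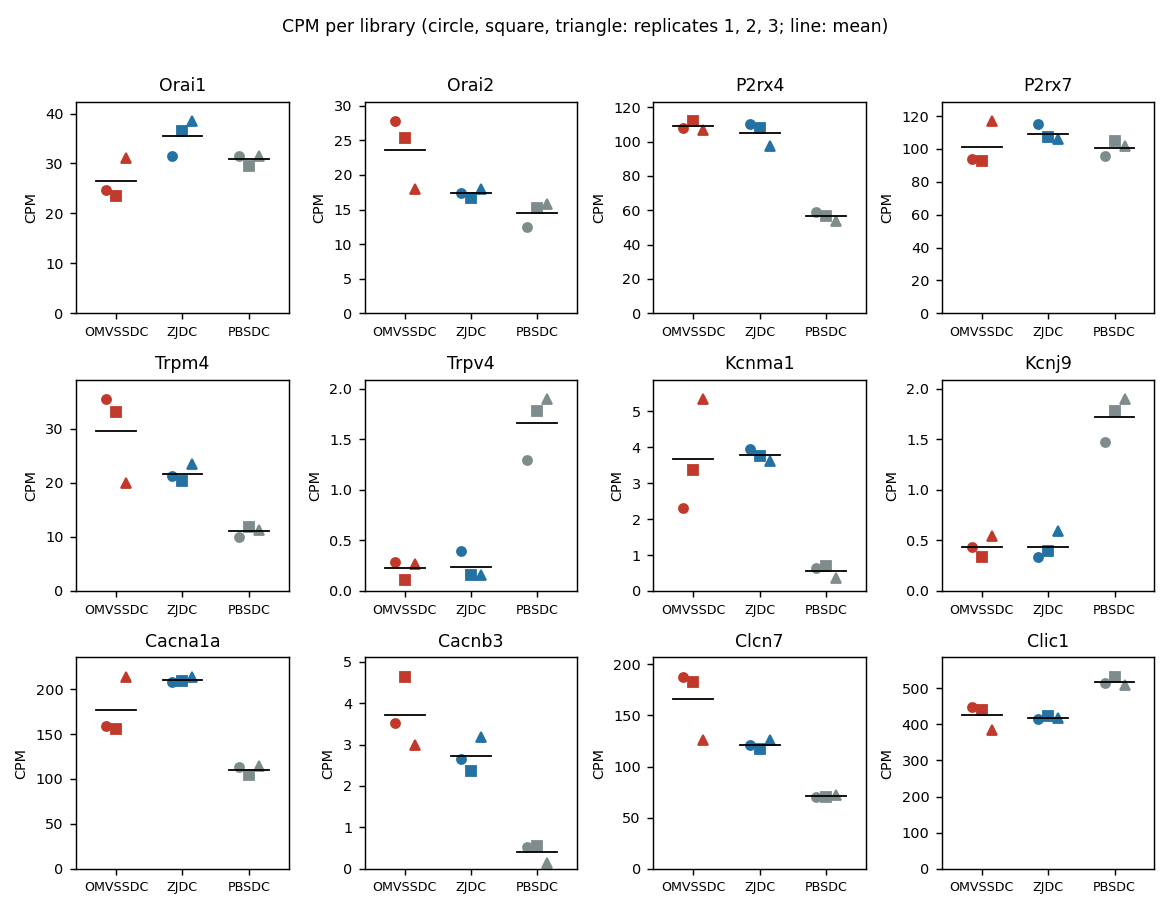
CPM in each library for 12 ion channel genes in OMVSSDC, ZJDC and PBSDC, with a circle, a square and a triangle for replicates 1, 2 and 3 and a line at the mean of 3. P2rx4 lies near 100 CPM in OMVSSDC and ZJDC and below 60 CPM in PBSDC, and in Orai1, Orai2, Trpm4, Cacna1a and Clcn7 the OMVSSDC triangle lies nearer to ZJDC than the other OMVSSDC points do.

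Potassium channel genes were the most numerous, with 22 tested. In OMVSSDC 8 were higher and 4 lower, and in ZJDC 7 were higher and 5 lower. All 3 inward rectifiers, which hold the resting voltage, were lower in OMVSSDC and in ZJDC. Kcnj9, among them, reached 10 counts in no OMVSSDC library and became a member mainly through PBSDC. Kcnj9, a subunit opened by G proteins, had 0.433, 0.335 and 0.541 CPM in OMVSSDC, 0.338, 0.391 and 0.590 CPM in ZJDC and 1.47, 1.78 and 1.90 CPM in PBSDC. It fell by 1.97 in OMVSSDC (SE 0.312, adjusted p = 0.000314) and by 1.92 in ZJDC (SE 0.306, adjusted p = 0.000430). Kcnj10, best known from glia and 11.9 kb from Kcnj9 on chromosome 1 of the table, had 1.44, 1.62 and 2.64 CPM in OMVSSDC, 2.25, 2.58 and 2.31 CPM in ZJDC and 4.78, 4.11 and 3.72 CPM in PBSDC. It too was below PBSDC in all 6 other libraries, and fell by 1.15 in OMVSSDC (adjusted p = 0.00159; lost within the 7 libraries (adjusted p = 0.0525)) and by 0.83 in ZJDC (adjusted p = 0.0101). Kcnj2, the strong inward rectifier of macrophages, had 34.2, 37.6 and 34.9 CPM in OMVSSDC, 37.4, 33.8 and 37.4 CPM in ZJDC and 44.2, 39.3 and 44.0 CPM in PBSDC. It fell by 0.26 in OMVSSDC (adjusted p = 0.0193), a call lost without OMVSSDC replicate 1 (adjusted p = 0.0576), without PBSDC replicate 1 (adjusted p = 0.0692), without PBSDC replicate 3 (adjusted p = 0.0644), after correction for length and GC content (adjusted p = 0.111) or with library totals alone (adjusted p = 0.22). It fell by 0.23 in ZJDC (adjusted p = 0.0347), lost without PBSDC replicate 1 (adjusted p = 0.113), without PBSDC replicate 3 (adjusted p = 0.106), without ZJDC replicate 1 (adjusted p = 0.0600), without ZJDC replicate 2 (adjusted p = 0.131), without ZJDC replicate 3 (adjusted p = 0.0552), with library totals alone (adjusted p = 0.129) or with no filter on low counts (adjusted p = 0.0603).

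Of 8 voltage-gated potassium channel genes, 4 were higher and 0 lower in each comparison with edgeR over all 9 libraries. Of all genes, 33.4% were higher and 30.2% lower in OMVSSDC, and 27.6% and 27.1% in ZJDC. Kcna3, Kcnd1, Kcnh2 and Kcnq1 reached 10 counts in no PBSDC library. They became members through the groups where they were high, which favoured a count of higher genes. Kcnh2, whose channel repolarises heart muscle, had 10, 14 and 15 counts in OMVSSDC, 16, 20 and 26 in ZJDC and 1, 1 and 1 in PBSDC. Relative to scaled library size the ratio was 12.6 for OMVSSDC over PBSDC (95% counting interval 4.02 to 63.9, adjusted p = 0.000201) and 19.0 for ZJDC over PBSDC (6.21 to 94.8, adjusted p = 5.51e-05). Kcna3, a voltage-gated channel of T cells and macrophages, had 2.09, 2.07 and 0.812 CPM in OMVSSDC, 1.47, 1.64 and 1.56 CPM in ZJDC and 0.295, 0.480 and 0.511 CPM in PBSDC. All OMVSSDC and ZJDC libraries were above PBSDC, with OMVSSDC replicate 3 the lowest of them. Kcna3 rose by 1.96 in OMVSSDC (SE 0.419, adjusted p = 0.00221), lost within the 7 libraries (adjusted p = 0.216) at 0.93, and by 1.86 in ZJDC (SE 0.421, adjusted p = 0.00385). Kcnh7, a relative of Kcnh2, rose by 0.70 in OMVSSDC (adjusted p = 0.0121; lost without PBSDC replicate 2 (adjusted p = 0.0539)) and by 0.85 in ZJDC (adjusted p = 0.00493). Kcnd1, a rapidly inactivating channel, rose by 1.31 in OMVSSDC (adjusted p = 0.0211), lost without OMVSSDC replicate 1 (adjusted p = 0.0706), without PBSDC replicate 1 (adjusted p = 0.0522) or without PBSDC replicate 3 (adjusted p = 0.0726), and did not pass in ZJDC (0.26, adjusted p = 0.667). Kcnq1, a slowly opening channel of heart and epithelia, rose by 1.41 in ZJDC (adjusted p = 0.0347), lost without PBSDC replicate 1 (adjusted p = 0.0709), without PBSDC replicate 3 (adjusted p = 0.0935), without ZJDC replicate 2 (adjusted p = 0.0640), without ZJDC replicate 3 (adjusted p = 0.133) or with no filter on low counts (adjusted p = 0.0546), and did not pass in OMVSSDC (0.90, adjusted p = 0.164).

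The calcium-activated channels went apart. Kcnma1, the large-conductance channel, had 2.31, 3.35 and 5.34 CPM in OMVSSDC, 3.95, 3.76 and 3.60 CPM in ZJDC and 0.649, 0.686 and 0.365 CPM in PBSDC. All 6 OMVSSDC and ZJDC libraries were above PBSDC, and Kcnma1 rose by 2.66 in OMVSSDC (SE 0.365, adjusted p = 0.000119) and by 2.70 in ZJDC (SE 0.363, adjusted p = 0.000144). Kcnn4, the intermediate-conductance channel that sustains calcium entry in immune cells, had 24.0, 21.7 and 17.8 CPM in OMVSSDC, 18.0, 17.2 and 18.1 CPM in ZJDC and 23.1, 25.2 and 22.5 CPM in PBSDC. ZJDC and OMVSSDC replicate 3 were below PBSDC and the other OMVSSDC libraries were near it. Kcnn4 fell by 0.41 in ZJDC (SE 0.115, adjusted p = 0.0123) and did not pass in OMVSSDC (-0.16, adjusted p = 0.253), but did so within the 7 libraries (adjusted p = 0.00819).

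Tandem pore domain channels carry the background potassium current, and 3 of 5 were higher in OMVSSDC and 2 of 5 in ZJDC. Kcnk6, which lets potassium leave macrophages, had 41.6, 42.6 and 37.5 CPM in OMVSSDC, 36.4, 39.4 and 40.2 CPM in ZJDC and 31.5, 30.2 and 36.1 CPM in PBSDC. It rose by 0.32 in OMVSSDC (adjusted p = 0.0120), lost without PBSDC replicate 2 (adjusted p = 0.0606) or within the 7 libraries (adjusted p = 0.124). It rose by 0.25 in ZJDC (adjusted p = 0.0430), lost without OMVSSDC replicate 1 (adjusted p = 0.0548), without OMVSSDC replicate 2 (adjusted p = 0.0532), without PBSDC replicate 1 (adjusted p = 0.126), without PBSDC replicate 2 (adjusted p = 0.166), without ZJDC replicate 2 (adjusted p = 0.111), without ZJDC replicate 3 (adjusted p = 0.136), with RLE size factors (adjusted p = 0.0502) or with no filter on low counts (adjusted p = 0.0662). Kcnk13, a potassium leak channel of microglia, had 42.0, 41.6 and 38.2 CPM in OMVSSDC, 29.0, 35.7 and 38.2 CPM in ZJDC and 33.7, 30.9 and 30.3 CPM in PBSDC. It rose by 0.36 in OMVSSDC (adjusted p = 0.0132), lost without PBSDC replicate 2 (adjusted p = 0.0504), without PBSDC replicate 3 (adjusted p = 0.0516), within the 7 libraries (adjusted p = 0.0666) or after correction for length and GC content (adjusted p = 0.0968), and did not pass in ZJDC (0.12, adjusted p = 0.379). Kcnk2, a channel opened by stretch, had 1.08, 1.68 and 1.83 CPM in OMVSSDC, 1.69, 1.56 and 1.40 CPM in ZJDC and 0.472, 0.411 and 0.876 CPM in PBSDC, and rose by 1.40 in OMVSSDC (adjusted p = 0.00477) and by 1.41 in ZJDC (adjusted p = 0.00542). Kcnab2, a cytoplasmic beta subunit and the most abundant Kcn gene per length, fell by 0.35 in OMVSSDC (adjusted p = 0.00155) and by 0.34 in ZJDC (adjusted p = 0.00232). The remaining 8 tested potassium channel genes passed in neither comparison. They include the voltage-gated channel gene Kcnh4, the tandem pore domain genes Kcnk4 and Kcnk7, the beta subunit genes Kcnab1 and Kcnab3 and the regulator gene Kcnrg. The genes named here, not all 8, had log2 fold changes of -0.07 (Kcnk4) to 1.43 (Kcnab3) in OMVSSDC. In ZJDC theirs were -0.21 (Kcnh4) to 1.01 (Kcnab3). Kcnab3 passed as higher in OMVSSDC without OMVSSDC replicate 3 (adjusted p = 0.0459) and without ZJDC replicate 1 (adjusted p = 0.0487). Kcnk7 did so without OMVSSDC replicate 3 (adjusted p = 0.0286) and without PBSDC replicate 2 (adjusted p = 0.0329). Kcnab1 passed as higher in ZJDC without OMVSSDC replicate 1 (adjusted p = 0.0400), without OMVSSDC replicate 3 (adjusted p = 0.0394), within the 7 libraries (adjusted p = 0.0373), with library totals alone (adjusted p = 0.0495) and with only these 2 groups (adjusted p = 0.0321). Kcnip2, a calcium-binding partner of voltage-gated potassium channels, was too low to be tested, at 15, 11 and 12 counts in OMVSSDC, 4, 4 and 2 in ZJDC and 0, 2 and 3 in PBSDC. Its ratio was 7.39 for OMVSSDC over PBSDC (95% counting interval 2.90 to 24.0) and 1.84 for ZJDC over PBSDC (0.573 to 6.86). Kcnip2 reached 10 counts in OMVSSDC alone and became a member through that group, which favoured a high ratio for it. The intervals hold counting error only, not the spread between libraries.

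Voltage-gated calcium channels are built of a pore subunit and auxiliary subunits, and 4 of 7 genes were higher and 2 lower in each comparison. Cacna1s and Cacnb3, among the higher ones, reached 10 counts in no PBSDC library. Cacna1a, the pore of the presynaptic P/Q-type channel, was the most abundant, at 159, 156 and 214 CPM in OMVSSDC, 208, 209 and 214 CPM in ZJDC and 113, 104 and 114 CPM in PBSDC. All OMVSSDC and ZJDC libraries were above PBSDC, and OMVSSDC replicate 3 was level with ZJDC. Cacna1a rose by 0.68 in OMVSSDC (SE 0.112, adjusted p = 0.000432), or 0.95 within the 7 libraries, and by 0.93 in ZJDC (SE 0.112, adjusted p = 6.90e-05). Cacnb3, a cytoplasmic beta subunit, had 3.53, 4.64 and 2.98 CPM in OMVSSDC, 2.65, 2.35 and 3.17 CPM in ZJDC and 0.531, 0.548 and 0.146 CPM in PBSDC. It rose by 3.14 in OMVSSDC (SE 0.354, adjusted p = 3.09e-05) and by 2.69 in ZJDC (SE 0.365, adjusted p = 0.000155). Cacnb1, the beta subunit of skeletal muscle, had 9.52, 9.38 and 13.3 CPM in OMVSSDC, 8.29, 9.78 and 9.50 CPM in ZJDC and 4.07, 3.77 and 4.31 CPM in PBSDC, and rose by 1.40 in OMVSSDC (adjusted p = 4.89e-05) and by 1.18 in ZJDC (adjusted p = 0.000231). Cacna1s, the pore of skeletal muscle, had 11, 16 and 12 counts in OMVSSDC, 8, 12 and 10 in ZJDC and 2, 0 and 2 in PBSDC, a ratio of 9.48 for OMVSSDC over PBSDC (95% counting interval 3.42 to 36.5, adjusted p = 0.00111) and of 6.90 for ZJDC over PBSDC (2.43 to 27.0, adjusted p = 0.00455).

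Lower in both groups was Cacna1f, the L-type pore of photoreceptors, with 7.07, 7.99 and 5.41 CPM in OMVSSDC, 4.96, 5.32 and 5.10 CPM in ZJDC and 9.96, 12.2 and 11.0 CPM in PBSDC. All 6 libraries of OMVSSDC and ZJDC were below PBSDC, and Cacna1f fell by 0.69 in OMVSSDC (adjusted p = 0.00283) and by 1.11 in ZJDC (adjusted p = 0.000206). Cacna1d, another L-type pore, fell by 0.62 in OMVSSDC (adjusted p = 0.0123; lost within the 7 libraries (adjusted p = 0.255)) and did not pass in ZJDC (-0.39, adjusted p = 0.0893), but did so without OMVSSDC replicate 3 (adjusted p = 0.0100), within the 7 libraries (adjusted p = 0.0128), after correction for length and GC content (adjusted p = 0.0142) and with only these 2 groups (adjusted p = 0.0133). Cacng8, a partner of AMPA receptors in brain, had 1.08, 1.79 and 0.879 CPM in OMVSSDC, 0.733, 0.782 and 0.859 CPM in ZJDC and 1.18, 1.99 and 2.55 CPM in PBSDC. It fell by 1.24 in ZJDC (adjusted p = 0.0163), lost without PBSDC replicate 3 (adjusted p = 0.0675) or without ZJDC replicate 1 (adjusted p = 0.0547), and did not pass in OMVSSDC (-0.56, adjusted p = 0.179), where the groups overlapped, but did so after correction for length and GC content (adjusted p = 0.0224).

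Not all members named Scn are given singly here. Among those given, the splicing factor gene Scnm1 had 17.5, 16.4 and 29.3 CPM in OMVSSDC, 27.9, 24.9 and 21.5 CPM in ZJDC and 16.8, 18.6 and 17.2 CPM in PBSDC. OMVSSDC replicates 1 and 2 lay at the PBSDC level and replicate 3 near ZJDC. Scnm1 did not pass in OMVSSDC (0.26, adjusted p = 0.278) or in ZJDC (0.50, adjusted p = 0.0592). It passed as higher in OMVSSDC within the 7 libraries (adjusted p = 2.46e-05), at 0.74. In ZJDC it passed as higher without OMVSSDC replicate 2 (adjusted p = 0.0417), without OMVSSDC replicate 3 (adjusted p = 4.49e-05), within the 7 libraries (adjusted p = 5.80e-05), with DESeq2 (adjusted p = 0.0463), with library totals alone (adjusted p = 0.0269) and with only these 2 groups (adjusted p = 7.15e-05). Scnn1a, a subunit of the epithelial sodium channel, did not pass (0.46, adjusted p = 0.0883 in OMVSSDC and 0.42, adjusted p = 0.128 in ZJDC). In OMVSSDC it passed as higher without ZJDC replicate 1 (adjusted p = 0.0484), within the 7 libraries (adjusted p = 0.0279) and with library totals alone (adjusted p = 0.0302). Scn8a did not pass either (-0.22, adjusted p = 0.728 in OMVSSDC and -0.78, adjusted p = 0.255 in ZJDC).

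The CLC genes encode chloride channels and chloride-proton exchangers, and 4 of 7 were higher and 1 lower in each comparison. Clcn7, the exchanger of lysosomes, had 188, 183 and 126 CPM in OMVSSDC, 121, 117 and 126 CPM in ZJDC and 70.4, 70.1 and 72.5 CPM in PBSDC. All OMVSSDC and ZJDC libraries were above PBSDC, and OMVSSDC replicate 3 was at the ZJDC level. Clcn7 rose by 1.22 in OMVSSDC (SE 0.132, adjusted p = 2.29e-05), or 0.82 within the 7 libraries, and by 0.77 in ZJDC (SE 0.131, adjusted p = 0.000658). Ostm1, its beta subunit in lysosomes and not a member, rose by 0.55 and 0.42 (adjusted p = 6.36e-05 and 0.000571) in OMVSSDC and ZJDC. Clcn3, an endosomal exchanger, had 147, 150 and 160 CPM in OMVSSDC, 164, 157 and 166 CPM in ZJDC and 104, 100 and 107 CPM in PBSDC. It rose by 0.55 in OMVSSDC (adjusted p = 2.67e-05) and by 0.65 in ZJDC (adjusted p = 1.38e-05). Its partner in endosomes Clcn4 had 35.7, 35.4 and 32.7 CPM in OMVSSDC, 41.6, 38.4 and 41.4 CPM in ZJDC and 52.5, 53.3 and 55.7 CPM in PBSDC. Clcn4 was below PBSDC in every OMVSSDC and ZJDC library and fell by 0.64 in OMVSSDC (adjusted p = 2.91e-05) and by 0.41 in ZJDC (adjusted p = 0.000750). Clcn6, an exchanger of late endosomes, rose by 0.31 in OMVSSDC (adjusted p = 0.0196; lost without OMVSSDC replicate 1 (adjusted p = 0.0573), without PBSDC replicate 2 (adjusted p = 0.0853), within the 7 libraries (adjusted p = 0.0515), after correction for length and GC content (adjusted p = 0.0881) or with only these 2 groups (adjusted p = 0.0584)) and by 0.41 in ZJDC (adjusted p = 0.00580).

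Clcn2, a plasma membrane chloride channel, had 3.53, 2.57 and 2.43 CPM in OMVSSDC, 2.31, 1.96 and 1.88 CPM in ZJDC and 1.42, 1.37 and 0.949 CPM in PBSDC. It rose by 1.17 in OMVSSDC (adjusted p = 0.00185) and by 0.71 in ZJDC (adjusted p = 0.0353), the ZJDC call being lost without PBSDC replicate 2 (adjusted p = 0.0607), without PBSDC replicate 3 (adjusted p = 0.116), without ZJDC replicate 1 (adjusted p = 0.115), without ZJDC replicate 2 (adjusted p = 0.0616), without ZJDC replicate 3 (adjusted p = 0.0535), with DESeq2 (adjusted p = 0.0561), after correction for length and GC content (adjusted p = 0.0700) or with no filter on low counts (adjusted p = 0.0550). The endosomal exchanger gene Clcn5 had -0.04 and 0.00 (adjusted p = 0.722 and 0.985), and the skeletal muscle channel gene Clcn1 had -0.57 and -0.67 (adjusted p = 0.107 and 0.0717; 0.0340 in ZJDC without ZJDC replicate 1). Both Clic genes passed, in opposite directions. Clic1 had 449, 440 and 385 CPM in OMVSSDC, 414, 422 and 416 CPM in ZJDC and 514, 532 and 509 CPM in PBSDC, and fell by 0.29 in OMVSSDC (adjusted p = 0.00390; 0.104 with library totals alone) and by 0.31 in ZJDC (adjusted p = 0.00296). Clic4 had 993, 988 and 924 CPM in OMVSSDC, 925, 937 and 922 CPM in ZJDC and 765, 819 and 816 CPM in PBSDC, and rose by 0.28 in OMVSSDC (adjusted p = 0.00181) and by 0.21 in ZJDC (adjusted p = 0.00924).

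LRRC8 proteins form the volume-regulated anion channel, of which LRRC8A is the required subunit. Lrrc8a had 11.0, 10.6 and 9.40 CPM in OMVSSDC, 7.72, 8.45 and 11.2 CPM in ZJDC and 7.49, 6.24 and 7.88 CPM in PBSDC. It rose by 0.52 in OMVSSDC (adjusted p = 0.0175), a call lost without OMVSSDC replicate 1 (adjusted p = 0.0539), without OMVSSDC replicate 2 (adjusted p = 0.0503), without PBSDC replicate 2 (adjusted p = 0.0749) or within the 7 libraries (adjusted p = 0.122), and did not pass in ZJDC (0.34, adjusted p = 0.101), but did so without OMVSSDC replicate 3 (adjusted p = 0.0339), within the 7 libraries (adjusted p = 0.0407) and with only these 2 groups (adjusted p = 0.0395). The partner subunit genes Lrrc8b, Lrrc8c and Lrrc8d lie in 1 cluster on chromosome 5, with gaps of 29.3 and 87.0 kb. Lrrc8d, the most abundant, had 169, 164 and 218 CPM in OMVSSDC, 225, 221 and 215 CPM in ZJDC and 197, 204 and 197 CPM in PBSDC. OMVSSDC replicates 1 and 2 were below PBSDC, while OMVSSDC replicate 3 and the ZJDC libraries were above it. Lrrc8d did not pass in OMVSSDC (-0.12, adjusted p = 0.317) or ZJDC (0.14, adjusted p = 0.250). It passed as lower in OMVSSDC without OMVSSDC replicate 3 (adjusted p = 1.01e-05) and after correction for length and GC content (adjusted p = 0.0494). As higher in ZJDC it passed without OMVSSDC replicate 3 (adjusted p = 0.00276), within the 7 libraries (adjusted p = 0.00426) and with only these 2 groups (adjusted p = 0.00357). Lrrc8c showed the same split, at 89.4, 91.8 and 122 CPM in OMVSSDC, 131, 122 and 116 CPM in ZJDC and 102, 106 and 111 CPM in PBSDC, with -0.07, adjusted p = 0.580 in OMVSSDC and 0.21, adjusted p = 0.135 in ZJDC. Lrrc8c passed as lower in OMVSSDC without OMVSSDC replicate 3 (adjusted p = 0.000874) and as higher there within the 7 libraries (0.19, adjusted p = 0.0280). As higher in ZJDC it passed without OMVSSDC replicate 3 (adjusted p = 0.000545), within the 7 libraries (adjusted p = 0.000792), with library totals alone (adjusted p = 0.0327) and with only these 2 groups (adjusted p = 0.000798). Lrrc8b rose by 0.37 in ZJDC (adjusted p = 0.00821) and did not pass in OMVSSDC (0.03, adjusted p = 0.797).

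Anoctamins are calcium-activated chloride channels or lipid scramblases. Ano6, a scramblase that exposes phosphatidylserine, had 105, 101 and 132 CPM in OMVSSDC, 133, 137 and 126 CPM in ZJDC and 142, 149 and 142 CPM in PBSDC. It fell by 0.35 in OMVSSDC (adjusted p = 0.00917; lost within the 7 libraries (adjusted p = 0.111)) and did not pass in ZJDC (-0.13, adjusted p = 0.286), but did so without OMVSSDC replicate 3 (adjusted p = 0.0158), within the 7 libraries (adjusted p = 0.0243), after correction for length and GC content (adjusted p = 0.0175) and with only these 2 groups (adjusted p = 0.0306). Ano10, an intracellular family member, had 77.3, 77.1 and 67.0 CPM in OMVSSDC, 62.3, 61.5 and 62.4 CPM in ZJDC and 54.0, 53.9 and 49.6 CPM in PBSDC. It rose by 0.49 in OMVSSDC (adjusted p = 0.000240) and by 0.24 in ZJDC (adjusted p = 0.0193), the ZJDC call being lost without PBSDC replicate 3 (adjusted p = 0.0813), without ZJDC replicate 1 (adjusted p = 0.0549) or without ZJDC replicate 3 (adjusted p = 0.0568). Ano8, which links the endoplasmic reticulum to the plasma membrane, rose by 0.40 in OMVSSDC (adjusted p = 0.0274; lost without OMVSSDC replicate 1 (adjusted p = 0.0517), without OMVSSDC replicate 2 (adjusted p = 0.115), without PBSDC replicate 1 (adjusted p = 0.112), within the 7 libraries (adjusted p = 0.238) or after correction for length and GC content (adjusted p = 0.128)) and by 0.38 in ZJDC (adjusted p = 0.0371), lost without PBSDC replicate 1 (adjusted p = 0.142), without PBSDC replicate 3 (adjusted p = 0.0647), without ZJDC replicate 2 (adjusted p = 0.0720), without ZJDC replicate 3 (adjusted p = 0.148) or after correction for length and GC content (adjusted p = 0.0590).

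Summed over all 64 members, levels were 3822, 3792 and 3744 CPM in OMVSSDC, 3788, 3787 and 3781 CPM in ZJDC and 3406, 3505 and 3509 CPM in PBSDC. Every OMVSSDC and ZJDC library was above every PBSDC library. The sum of the Clcn genes was 418, 416 and 366 CPM in OMVSSDC, 375, 362 and 382 CPM in ZJDC and 271, 265 and 279 CPM in PBSDC, and that of the P2rx genes 204, 206 and 225 CPM in OMVSSDC, 226, 217 and 205 CPM in ZJDC and 156, 163 and 157 CPM in PBSDC. The Kcn genes summed to 301, 299 and 282 CPM in OMVSSDC, 273, 276 and 297 CPM in ZJDC and 307, 303 and 319 CPM in PBSDC, where OMVSSDC and ZJDC lay below PBSDC without overlap. These sums are a description, since a few abundant genes set them.

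In OMVSSDC against ZJDC, 0 members passed in either direction (edgeR), where 0.856% of all genes were higher and 1.10% lower, and 0.0778% and 0.0519% so by over 2-fold. At an unadjusted p under 0.05, 10 members were higher and 8 lower, beside 31.8% of all genes in either direction. DESeq2 called 2 higher (Clcn7 and Ano10) and 3 lower (Clcn4, Orai1 and Lrrc8b), and limma-voom called 0. The smallest adjusted p with edgeR belonged to Orai1 (log2 fold change -0.43, SE 0.118, adjusted p = 0.0732), followed by Lrrc8b (-0.34, adjusted p = 0.0758) and Clcn7 (0.45, adjusted p = 0.0778). Groups did not overlap for 10 tested members, beside 24.0% of all genes.

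These counts depended on OMVSSDC replicate 3. Over the 38 members with a mean of 5 CPM or more, its median absolute log2 difference from the ZJDC mean was 0.0651, against 0.321 and 0.242 for OMVSSDC replicates 1 and 2. It lay within the range of the ZJDC libraries for 34 of 64 members, and replicates 1 and 2 for 16 and 15. Without replicate 3, 13 members were higher and 14 lower in OMVSSDC than in ZJDC, where 27.6% and 28.0% of all genes were. Among these, Orai1 stood at -0.56, adjusted p = 6.51e-06, while Orai2 stood at 0.61, adjusted p = 1.32e-05 and Orai3 at 0.45, adjusted p = 0.000108. The subunit genes Lrrc8b, Lrrc8c and Lrrc8d stood at -0.43, -0.44 and -0.41 (adjusted p = 2.18e-05, 2.44e-07 and 2.20e-08). Clcn7 and Trpm4 stood at 0.61 and 0.65 (adjusted p = 5.75e-11 and 1.14e-06), and Cacna1a at -0.42 (adjusted p = 4.01e-08). Heart and brain markers were at 8.15 and 8.49 CPM in OMVSSDC replicates 1 and 2 and at 22.7 to 30.6 CPM in ZJDC, and their part in these differences was not tested.

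**Figure D4:**
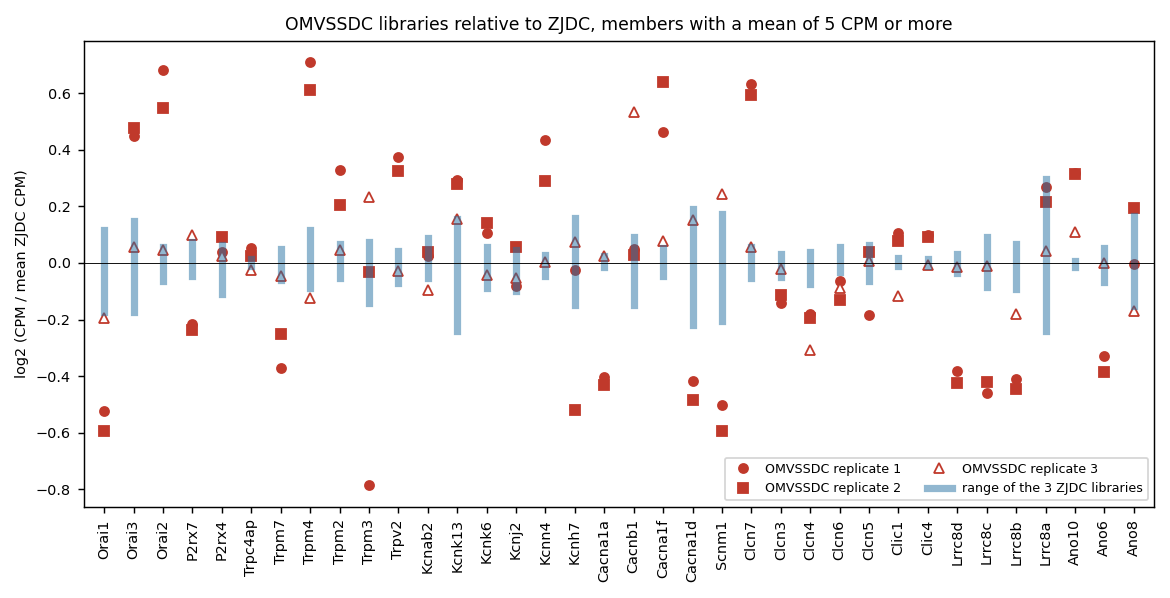
Log2 of each OMVSSDC library's CPM over the mean CPM of ZJDC for 36 ion channel genes with a mean of 5 CPM or more, with an open triangle for OMVSSDC replicate 3 and a blue bar for the range of the 3 ZJDC libraries. Replicate 3 lies nearer to 0 than both replicates 1 and 2 for 27 of the 36 genes.

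Genes that work with these channels were listed too. For every list below, 33.4% of all genes were higher and 30.2% lower in OMVSSDC, and 27.6% and 27.1% in ZJDC. The lists are short, and whether they differ from all genes was not tested. No rule named the genes given singly from these lists, and their values under other settings are not given. Of 11 tested calcium store sensors and release channels, 5 were higher and 1 lower in OMVSSDC, and 4 higher and 1 lower in ZJDC, with medians of 0.23 and 0.17 beside 0.05 and 0.01 over all genes. Stim1, the sensor that opens Orai1, did not pass (0.13 and 0.09 in OMVSSDC and ZJDC, adjusted p = 0.136 and 0.293). The calcium release channel gene Itpr2 rose by 1.08 and 1.13 (adjusted p = 7.73e-07 and 8.77e-07). Saraf, a brake on store-operated entry, rose in OMVSSDC by 0.73 (adjusted p = 0.000170) and was higher in OMVSSDC than in ZJDC by 0.57 (adjusted p = 0.0358). Downstream of calcium, 6 of 20 calcineurin, calmodulin and NFAT genes were higher and 10 lower in each comparison (medians -0.34 and -0.24). The transcription factor gene Nfatc2 had -1.61 and -1.39 (adjusted p = 3.17e-07 and 1.25e-06). Calcium pumps and exchangers counted 4 higher and 1 lower of 8 in OMVSSDC and 3 and 1 in ZJDC, and mitochondrial uniporter genes 3 higher and 2 lower of 8 in OMVSSDC and 3 and 3 in ZJDC.

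Lysosomal and other intracellular cation channels counted 6 higher and 1 lower of 8 in each comparison (medians 0.50 and 0.44). The lysosomal channel gene Mcoln2 rose by 2.38 and 2.05 (adjusted p = 1.06e-07 and 4.36e-07), while Tpcn1, a sodium and calcium channel of endolysosomes, had -1.10 and -0.89 (adjusted p = 2.25e-05 and 0.000129). Plasma membrane channels outside the name rule counted 8 higher and 1 lower of 13 in OMVSSDC and 5 and 2 in ZJDC, with the stretch channel gene Piezo1 at 0.64 and 0.70 (adjusted p = 2.09e-05 and 1.65e-05). Sodium-potassium pump genes counted 0 higher and 4 lower of 7 in OMVSSDC and 0 and 3 in ZJDC (medians -0.54 and -0.36). WNK kinase regulators counted 5 higher and 2 lower of 10 in OMVSSDC and 6 and 1 in ZJDC. Genes of extracellular ATP breakdown and P2Y receptors counted 5 higher and 2 lower of 8 in OMVSSDC and 3 and 1 in ZJDC, with the ectonucleotidase gene Entpd1 at 1.95 and 1.80 (adjusted p = 5.46e-06 and 1.40e-05).

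In the table's cellular component terms, 50 members belonged to the plasma membrane, of which 49 were tested, with 21 higher and 11 lower in OMVSSDC and 19 and 9 in ZJDC. Of all genes, 33.4% were higher and 30.2% lower in OMVSSDC, and 27.6% and 27.1% in ZJDC. Chromosomes 5 and 7 carried 9 members each. Tested members were longer than all tested genes (median 5444 against 4531 bases) and had a higher GC content (53.8% against 49.6%). With the trend over length and GC content removed, a setting chosen after seeing the data, 23 were higher and 17 lower in OMVSSDC, where 31.3% and 34.5% of all genes were, and 22 and 16 in ZJDC, where 26.5% and 32.1% of all genes were. Spans of 10 members overlap that of another gene, 8 of them on the opposite strand, and the sources used here do not say whether counting used strand. Reads of Ano8, Cacna1d, Clcn1, Clcn2, Kcnab2, Kcnh7, P2rx3 and Trpc4ap can therefore not be told apart from those of their antisense neighbours where the genes overlap, nor reads of Kcnk4 and Lrrc8a from a neighbour on the same strand.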

How the data were processed

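RNA levels were measured in 9 libraries of DC2.4 cells, grouped by their titles. The submitters' processing notes name fastp 0.22.0 for read filtering, HISAT2 2.1.0 for alignment and HTSeq 0.9.1 for counting. The authors deposited read counts per gene, without normalization, and FPKM, which equalled count per length and library total when checked. The build was not given in the sources used here.

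Members and lists were chosen with earlier results of these data known. Counts were tested in R 4.3.3 with edgeR 4.0.16: filterByExpr (minimum count 10, minimum total 15) kept 11568 genes, TMM scaled the libraries, and a robust quasi-likelihood model with the group as its factor was fitted to all 9 libraries (6 residual degrees of freedom). Two-sided F-test p-values were adjusted over all of them by Benjamini-Hochberg, with 0.05 as the limit for a call. Standard errors are those of log2 fold changes. Ratios of low counts carry exact counting intervals. The pipeline was tested on simulated data.

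Genes were named if they belonged to a panel of 22, had the highest mean FPKM of their prefix, or were called at 2-fold or more with a mean of at least 0.5 CPM. Single values of 3 members, included in all counts, are not reported here. Markers and partner lists are described by counts and medians, without a set test. Promoters and motifs were read from the RefSeq table with Python 3.11.15. Alternatives were RLE factors, library size alone, 2 other filters, DESeq2 1.42.0, voom of limma 3.58.1, a fit of only the 2 groups compared, glmTreat with a fold of 1.2, a replicate block, the 7 libraries without OMVSSDC replicates 1 and 2, each library left out, 2 other membership limits and, chosen after seeing the data, a length and GC trend removed (GENCODE M21).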

Additional observations from a re-analysis of the deposited data

How the results depend on the processing

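The alternatives moved the member counts as follows. In OMVSSDC against PBSDC the number lower was 8 with library size alone and 6 with glmTreat at a fold of 1.2, against 13. In ZJDC against PBSDC glmTreat left 15 higher and 7 lower, against 23 and 12. Over both comparisons with PBSDC it lost 27 calls of single members. Among these were Kcnab2 and Clic4 in both comparisons, and Lrrc8b, Kcnn4 and Clcn6 in ZJDC. In OMVSSDC against ZJDC DESeq2 called 2 higher and 3 lower, against 0. Leaving out 1 library at a time gave 23 to 31 higher and 11 to 18 lower in OMVSSDC, 18 to 32 higher and 10 to 15 lower in ZJDC, and 0 to 13 higher and 0 to 14 lower in OMVSSDC against ZJDC, where 13 and 14 came without OMVSSDC replicate 3. For glmTreat, DESeq2 and the other left-out libraries the share of all genes called is not given here. Within the 7 libraries without OMVSSDC replicates 1 and 2, OMVSSDC is 1 library, so members called there are not counted. Lrrc8c in OMVSSDC against PBSDC stood at 0.19 there and at -0.07 with all 9 libraries. The cause was not tested. Membership at 30 counts in 3 libraries left 22 higher and 11 lower in OMVSSDC and 18 and 9 in ZJDC.

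With the replicate number as a block, 27 members were higher and 13 lower in OMVSSDC, where 30.8% and 28.5% of all genes were. In ZJDC 21 were higher and 11 lower, where 25.6% and 24.4% of all genes were. Between OMVSSDC and ZJDC 0 members passed, beside 0% of all genes. Kcnk6 (adjusted p = 0.0821), Kcnq1 (0.0686) and Kcnj2 (0.0677) lost their ZJDC calls under the block. Same-numbered libraries had correlations of deviations from their group means of -0.388 to 0.089, so no pairing by number was seen. OMVSSDC replicate 3 stood apart from its group, so values that involve OMVSSDC cannot decide whether libraries were paired. The labels state no pairing. Over 189 values of single members and 3723 alternatives, 3500 kept their call, 118 were no longer past the threshold and 104 passed newly. In 1 further case the call changed and the direction turned. Values past the threshold in neither fit were counted as kept whatever their sign. Calls of low genes rest on few counts, 3 counts being 0.163 to 0.235 CPM.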
